A study of Homo sapiens with 32 samples.

Results

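The zinc finger genes of chromosome 19 were followed through their start sites in H3K27ac ChIP-seq data. A region was counted as a member when it lay on chromosome 19 and held, or came within 3 kb of, a protein-coding start site (GENCODE, hg19) of a gene whose symbol begins with ZNF. This rule uses position and name only. It gave 301 of the 92108 regions of the series, and these served 243 of the 248 ZNF genes of the chromosome. The genes with no region within 3 kb were ZNF98, ZNF404, ZNF534, ZNF835 and ZNF154. A start site lay inside 259 of the members, 16 members lay near more than 1 ZNF gene, and 34 also lay near the start of a gene of another name. Up to 5 regions belonged to 1 gene, so members of the same gene are not independent of each other.

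H3K27ac, acetylation of lysine 27 of histone H3, marks active promoters and enhancers. The cells were SK-N-BE(2)C, an established neuroblastoma line of the adrenergic type that carries an amplified MYCN gene. They had been kept for 5 days in palbociclib at 1 µM (PB), an inhibitor of the cyclin-dependent kinases CDK4 and CDK6, in all-trans retinoic acid (RA), in both (PB+RA), or in the solvent DMSO, which all groups shared. Each group had 4 ChIP libraries from separate passages of this single line, and each ChIP library had an input library, whose reads are not analysed here on their own. The study concerns the differentiation of neuroblastoma cells toward neurons under these drugs, and the comparison here asks how acetylation at the ZNF starts differed after each treatment. Of markers of the cell type, all 9 adrenergic genes looked up had a peak near a start site in all 4 DMSO libraries, as had 5 of 6 mesenchymal, 1 of 5 immune and 1 of 4 endothelial genes. Of the adrenergic genes 5 were decreased with RA and 4 with PB+RA by the test described below, and DBH was increased with PB. Of all regions put to this test, 7.87% were decreased with RA, 14.5% were decreased with PB+RA and 7.26% were increased with PB. Of the mesenchymal genes SNAI2 and WWTR1 were decreased with PB, WWTR1 was increased with RA, and with PB+RA SNAI2 was increased and WWTR1 decreased. Of the immune genes CD14 was increased with RA and CD3E decreased with RA and PB+RA, and no endothelial gene was called. Whether this had a part in the values of the ZNF genes was not tested.

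ZNF genes encode C2H2 zinc finger proteins, in which each finger is a short loop held by a zinc ion and several fingers in a row read a DNA sequence. Most of those on chromosome 19 also carry a KRAB domain, which binds the co-repressor TRIM28 and through it the methyltransferase SETDB1 and HP1 proteins, so that the bound DNA, often a transposable element, is kept in repressed chromatin. The genes stand in clusters that grew by tandem duplication, and neighbours are often close paralogues. Translation of the annotated coding sequences found a KRAB pattern in 182 of the 248 genes, a SCAN pattern in ZNF444 and ZNF446 only, and a median of 12 fingers, with 36 at most, in ZNF208. The reading frame of ZNF274 was read here only as a short form without fingers. Reads from near-identical stretches of neighbouring paralogues may have been placed at either copy, and how such reads were treated is not given in the sources used here.

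The ZNF promoters shown here are those of the genes on which the results turn. The first 3 belong to genes with more H3K27ac in PB+RA cells than in DMSO cells and the last 3 to genes with less. Each run holds 250 bases before and 50 after the RefSeq start (table of build GRCh38.p14), was matched letter for letter to GRCh37, the build of hg19, at the position given, and is written 5′ to 3′ on the strand of the gene. Capitals mark the motifs searched for.
ZNF587, chr19:58360977-58361276, plus strand: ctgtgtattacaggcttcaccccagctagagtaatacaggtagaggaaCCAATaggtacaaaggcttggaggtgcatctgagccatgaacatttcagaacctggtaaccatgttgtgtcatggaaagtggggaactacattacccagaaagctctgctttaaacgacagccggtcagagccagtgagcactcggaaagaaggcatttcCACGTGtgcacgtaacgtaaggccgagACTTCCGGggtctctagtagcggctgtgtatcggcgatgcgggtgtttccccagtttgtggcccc
ZNF793, chr19:37997591-37997890, plus strand: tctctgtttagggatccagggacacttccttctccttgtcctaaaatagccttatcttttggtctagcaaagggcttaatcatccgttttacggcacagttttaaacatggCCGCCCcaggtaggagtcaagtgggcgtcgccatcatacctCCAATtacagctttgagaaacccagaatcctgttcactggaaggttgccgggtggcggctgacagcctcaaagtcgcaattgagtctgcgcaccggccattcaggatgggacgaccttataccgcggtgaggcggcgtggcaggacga
ZNF420, chr19:37569085-37569384, plus strand: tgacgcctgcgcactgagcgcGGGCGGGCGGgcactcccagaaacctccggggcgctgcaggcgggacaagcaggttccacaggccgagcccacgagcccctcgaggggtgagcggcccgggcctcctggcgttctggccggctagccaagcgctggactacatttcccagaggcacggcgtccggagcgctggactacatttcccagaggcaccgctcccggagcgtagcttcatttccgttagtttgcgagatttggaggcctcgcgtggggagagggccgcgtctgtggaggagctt
ZNF878, chr19:12163727-12164026, minus strand: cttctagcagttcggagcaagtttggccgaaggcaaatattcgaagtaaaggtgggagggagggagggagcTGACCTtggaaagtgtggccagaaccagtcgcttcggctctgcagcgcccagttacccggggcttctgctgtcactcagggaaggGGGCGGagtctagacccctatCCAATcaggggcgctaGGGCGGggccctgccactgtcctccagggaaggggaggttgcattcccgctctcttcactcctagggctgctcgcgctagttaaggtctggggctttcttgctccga
ZNF439, chr19:11959291-11959590, plus strand: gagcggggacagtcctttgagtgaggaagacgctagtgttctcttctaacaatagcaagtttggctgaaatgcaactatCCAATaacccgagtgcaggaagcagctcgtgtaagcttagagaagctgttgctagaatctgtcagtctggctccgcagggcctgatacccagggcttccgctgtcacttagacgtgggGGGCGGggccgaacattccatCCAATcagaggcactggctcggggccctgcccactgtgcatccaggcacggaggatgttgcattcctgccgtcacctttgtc
ZNF296, chr19:45579687-45579986, minus strand: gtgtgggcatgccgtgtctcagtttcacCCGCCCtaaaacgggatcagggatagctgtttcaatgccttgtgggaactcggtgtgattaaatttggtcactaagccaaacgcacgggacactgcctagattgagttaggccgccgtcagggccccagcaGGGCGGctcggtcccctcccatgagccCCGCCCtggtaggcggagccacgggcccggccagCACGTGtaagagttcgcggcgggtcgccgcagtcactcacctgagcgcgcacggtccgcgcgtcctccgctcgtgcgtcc

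The motifs were searched on both strands, and no motif contains another. Of the 213 ZNF genes with a region and an entry in the promoter table, 68.1% held the GC box GGGCGG, against 58.5% of 15842 promoters of protein-coding genes, and 54.9% held CCAAT, against 36.4%. The ETS motif CCGGAAGT stood in 20.7% of the ZNF promoters, against 6.19% of all. TATAAA stood in 1.88%, against 9.63%. The nuclear receptor motif AGGTCA, of the kind to which retinoic acid receptors bind in pairs, stood in 13.1%, against 11.7%. The E-box CACGTG, the kind of site that MYC family proteins bind, stood in 4.23%, against 8.88%. The E2F motif TTTCCCGC stood in 1.88%, against 2.18%, and its other form TTTGGCGC in 4.23%, against 0.89%. The CRE TGACGTCA (3.29%, against 2.59%), the NRF1 motif GCATGCGC (4.23%, against 4.26%) and the YY1 motif ATGGCGG (8.45%, against 7.63%) completed the search. Among the genes with a member increased in PB+RA cells, 20 of 31 promoters held a GC box and 16 held CCAAT. Among those with a member decreased, all 10 held a GC box and 7 held CCAAT. The numbers are small, and a match is only a match of letters.

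Acetylation at the members was measured in a pair of ways. The authors' group means, from DiffBind, give 1 value per group and region as the log2 of normalised reads. They carry no error and allow no test. The peak enrichment gives a value per library: each base under a called peak has the fold enrichment over input of that peak, other bases have 0, and the mean is taken over the region. A value of 0 means that no peak was called, not that no read was there. Differences between groups were fitted with limma on log2(enrichment + 1), after the libraries were scaled to a common median over regions with a peak in every library, in 76727 regions with a peak in at least 4 libraries. An increase or a decrease was called where the Benjamini-Hochberg adjusted p over all of them was under 0.05 and the difference more than 0.5. Of the 301 members, 290 were tested. The other 11 were short regions with few peaks, for example one of 179 bases at ZNF20. Bulk chromatin cannot tell a mark on fewer cells from less of the mark in each cell. The sign of the fitted difference was that of the difference of the authors' means at every called member, 19 in PB cells, 18 in RA cells and 61 in PB+RA cells. Over all 290 tested members the signs agreed at 225 in PB cells, 221 in RA cells and 245 in PB+RA cells. Both measures come from the same libraries, so the agreement is not independent.

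At baseline the members had a median width of 2467 bases and a median group mean of 7.81 in DMSO cells, against 7.20 at the 1308 other start-site regions of the chromosome. A peak was present in all 16 libraries at 82.4% of the members, against 57.5% of those other start regions. The range in DMSO cells ran from 1.45 at the short ZNF20 region to 11.07 at ZNF536. The cluster with the highest median was q1, at 9.27 over 5 regions, and the one with the lowest was q4, at 6.65 over 45 regions.

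The libraries differed in their number of peaks. This number of peaks per library lay between 64516 in DMSO replicate 3 and 104392 in RA replicate 2, and 260 to 282 members had a peak in each library. DMSO replicate 3 stood apart at the members, with a median scaled log2 enrichment of 3.20, against 2.48, 2.60 and 2.78 in the other DMSO libraries, while over all regions tested it had the lowest median, 0.77, of the 16. The counts are therefore given with and without it.

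PB+RA was the treatment with the most changes at the members. It increased 45 members, near 40 genes, and decreased 16, near 13 genes. Over all regions tested it increased 22.2% and decreased 14.5%, against 15.5% and 5.52% of the members. The members' share of decreases stayed under that of all regions in the settings given here, but the order of the increases did not hold in all of them. Against the other start-site regions of chromosome 19 the order differed: of 1213 such regions, 4.12% were increased and 21.4% decreased. At ZNF start regions of other chromosomes, 11.4% of 299 were increased and 36 regions decreased. Among these classes of start regions the group means showed the same order, but by this measure all regions lay below the members. The median difference of PB+RA from DMSO was 0.15 at the members, -0.11 at ZNF starts elsewhere and -0.44 at the other starts of the chromosome, against -0.02 over all regions, and 65.4% of the members had a positive difference. Without DMSO replicate 3 the members' counts were 76 increased and 12 decreased, 26.3% and 4.15%, against 22.2% and 16.9% of all regions tested and 4.55% and 26.0% of the other starts of the chromosome, so the members' share of increases then lay above that of all regions. The median G and C content was 51.9% at the members and 58.0% at the other starts of the chromosome, and across the members the PB+RA difference of the group means had a Pearson r of -0.35 with it. The part of base composition in the result is measured only by the next counts. With the 10 classes of G and C content centred in each library, 68 members were increased and 9 decreased, 23.4% and 3.10%, against 13.2% and 14.6% of all regions tested and 12.9% and 5.44% of the other starts, again with the members' share of increases above that of all regions. Other settings went the other way. Without DMSO replicate 1, 31 members were increased and 18 decreased, 10.8% and 6.25%, against 21.3% and 12.3% of all regions tested. The median fitted difference was then 0.068 at the members and 0.069 over all. With the highest peak enrichment in place of the mean, 3.79% of the members were increased, against 13.2% of all regions tested.

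**Figure D1:**
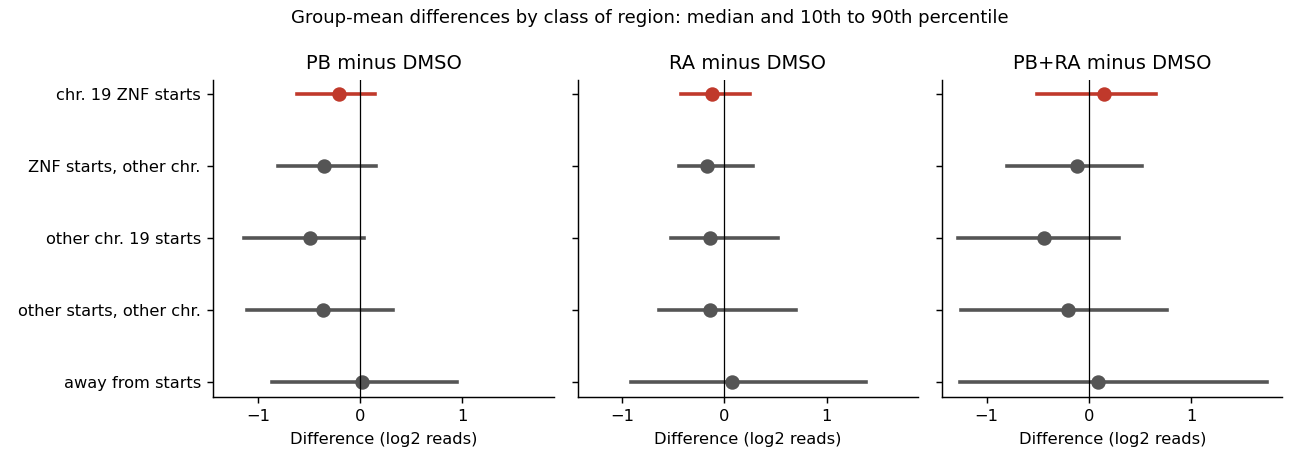
Differences of the authors' group means from DMSO (log2 of normalised reads, horizontal axis) for PB, RA and PB+RA in 5 classes of region, ZNF starts of chromosome 19 in red. Points are medians over regions and lines run over the 10th to 90th percentile of regions, not an error of the mean. In PB+RA the median lies at 0.15 for the ZNF starts of chromosome 19 and at -0.44 for its other starts.

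PB alone moved few members and its direction depended on the scaling. It increased 4 members and decreased 15, against 7.26% and 4.68% of all regions tested. With quantile scaling the counts were 14 and 12, without scaling 0 and 15, with classes of G and C content centred 6 and 4, and without DMSO replicate 3 14 and 10. The median fitted PB difference was -0.05 at the members and 0.06 over all regions tested, and without scaling -0.18 at the members and -0.07 over all. The median group-mean difference was -0.20 at the members and -0.49 at the other starts of the chromosome. Across the 301 members the PB difference of the group means fell with G and C content (Pearson r = -0.37 across regions, which share libraries and are not replicates). RA alone increased 8 members and decreased 10, against 13.0% and 7.87% of all regions tested, with a median group-mean difference of -0.12. Without DMSO replicate 3 the RA counts were 14 and 6, and without DMSO replicate 1 they were 8 and 18. In all, 221 of the 290 members tested were called in none of the 3 treatments. Of the 45 members increased in PB+RA cells, 37 were called increased in neither PB nor RA cells, 6 also in RA cells, and 3 also in PB cells. Since the 3 comparisons share the DMSO libraries, these counts are not independent. The same overlap over all regions tested is not given here. There too PB+RA increased more regions, 22.2%, than PB, 7.26%, or RA, 13.0%, so the overlap is not read as a trait of the members.

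The ZNF genes fell into 10 clusters of at least 4 genes with gaps of under 500 kb, named here by arm and order, and 14 scattered genes. On the short arm p1 held 5 genes, p2 14, p3 25 and p4 37. On the long arm q1 held 5 genes, q2 26, q3 23, q4 40, q5 16 and q6 43. The change with PB+RA was uneven along the chromosome. On the long arm 35 of 186 tested members were increased and 4 decreased, and on the short arm 10 of 104 were increased and 12 decreased. The shares were 18.8% and 2.15% on the long arm and 9.62% and 11.5% on the short arm. Of all regions tested 22.2% were increased and 14.5% decreased. Without DMSO replicate 3 the counts were 59 and 3 on the long arm and 17 and 9 on the short arm. Without DMSO replicate 1 they were 24 and 6, and 7 and 12. With G and C classes centred they were 57 and 1, and 11 and 8.

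Cluster q2, from the start of ZNF565 to that of ZNF573 (chr19:36704294-38249236), had 12 of 34 tested members increased and none decreased. Its increased genes were ZNF420, ZNF793, ZNF345, ZNF540, ZNF571, ZNF850, ZNF529, ZNF790 and ZNF383. Cluster q3 (chr19:44029649-45004562) had 6 of 23 increased, at ZNF112, ZNF233, ZNF225, ZNF226, ZNF223 and ZNF227, and no decrease. It also had the highest cluster median of the PB+RA difference of the group means, 0.46, with 21 of 23 regions above 0. Cluster q4 had 9 increased and 1 decreased of 45, with a median of 0.33, and 5 increased without DMSO replicate 1. Cluster q6 had 7 increased and none decreased of 45, with a median of 0.14, and 3 increased and 2 decreased without DMSO replicate 1. In that setting q2 had 10 increased and q3 had 6. The increased share was 35.3% in q2, 26.1% in q3, 20% in q4 and 15.6% in q6, against 22.2% of all regions tested. Clusters q1 and q5 had no member called. With G and C classes centred the increased members numbered 16 in q4, 13 in q2, 12 in q6, 7 in q3, 5 of 19 in q5 and 3 of 5 in q1, and without DMSO replicate 3 they numbered 18 in q2, 17 in q4, 11 in q6, 10 in q3, 1 in q5 and 0 in q1. The order of the clusters and the lack of calls in q1 and q5 thus changed with the setting. On the short arm, p1 had 2 and p2 had 4 increases with no decrease, 28.6% and 25% of their 7 and 16 tested members.

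Clusters p3 and p4 differed from these. Cluster p3 (chr19:11597645-12721732, ZNF653 to ZNF791) had 7 members decreased and 2 increased of 34 tested in PB+RA cells, with a median group-mean difference of -0.18. In PB cells it held 7 of the 15 decreased members and had the lowest cluster median, -0.45, with 3 of 36 regions above 0. The median at the other starts of the chromosome was -0.49. PB decreased 20.6% of the tested p3 members, against 11.9% of those other starts and 4.68% of all regions tested. In RA cells 4 members of p3 were decreased and 2 increased. Cluster p4, with 37 genes, had 5 members decreased and 1 increased of 44 in PB+RA cells, with a median of 0.00. PB+RA thus decreased 20.6% of the tested members in p3 and 11.4% in p4. That compares with 21.4% of the other starts of the chromosome and 14.5% of all regions tested. Without DMSO replicate 3 the PB+RA counts were 3 increased and 5 decreased in p3, and 4 and 2 in p4. With G and C classes centred, p3 had 4 increased and 3 decreased, the PB decreases there numbered 2, and p4 had 1 increased and 5 decreased as before. At the level of whole clusters, the PB libraries of p3 lay below the DMSO libraries. The median scaled log2 enrichment of the p3 members was 2.84, 2.74, 2.88 and 2.63 in the PB libraries, against 2.98, 3.16, 3.37 and 3.11 in the DMSO libraries. The p1 members also separated, with 2.77, 2.64, 2.61 and 2.41 in the PB libraries, against 2.86, 2.90, 2.80 and 2.93 in the DMSO libraries. So did the other starts of the chromosome, so the separation was not particular to these clusters. Their medians were 1.65, 1.64, 1.91 and 1.87 in the PB libraries, against 2.18, 2.06, 2.00 and 2.18 in the DMSO libraries. The PB+RA and DMSO libraries overlapped in p3 and in q3. The median scaled log2 enrichment of the q3 members was 2.50, 2.76, 2.98 and 3.10 in the PB+RA libraries, against 2.15, 2.23, 2.90 and 2.57 in the DMSO libraries. That of the p3 members was 3.0, 3.08, 2.76 and 3.03 in the PB+RA libraries, against the DMSO values just given.

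**Figure D2:**
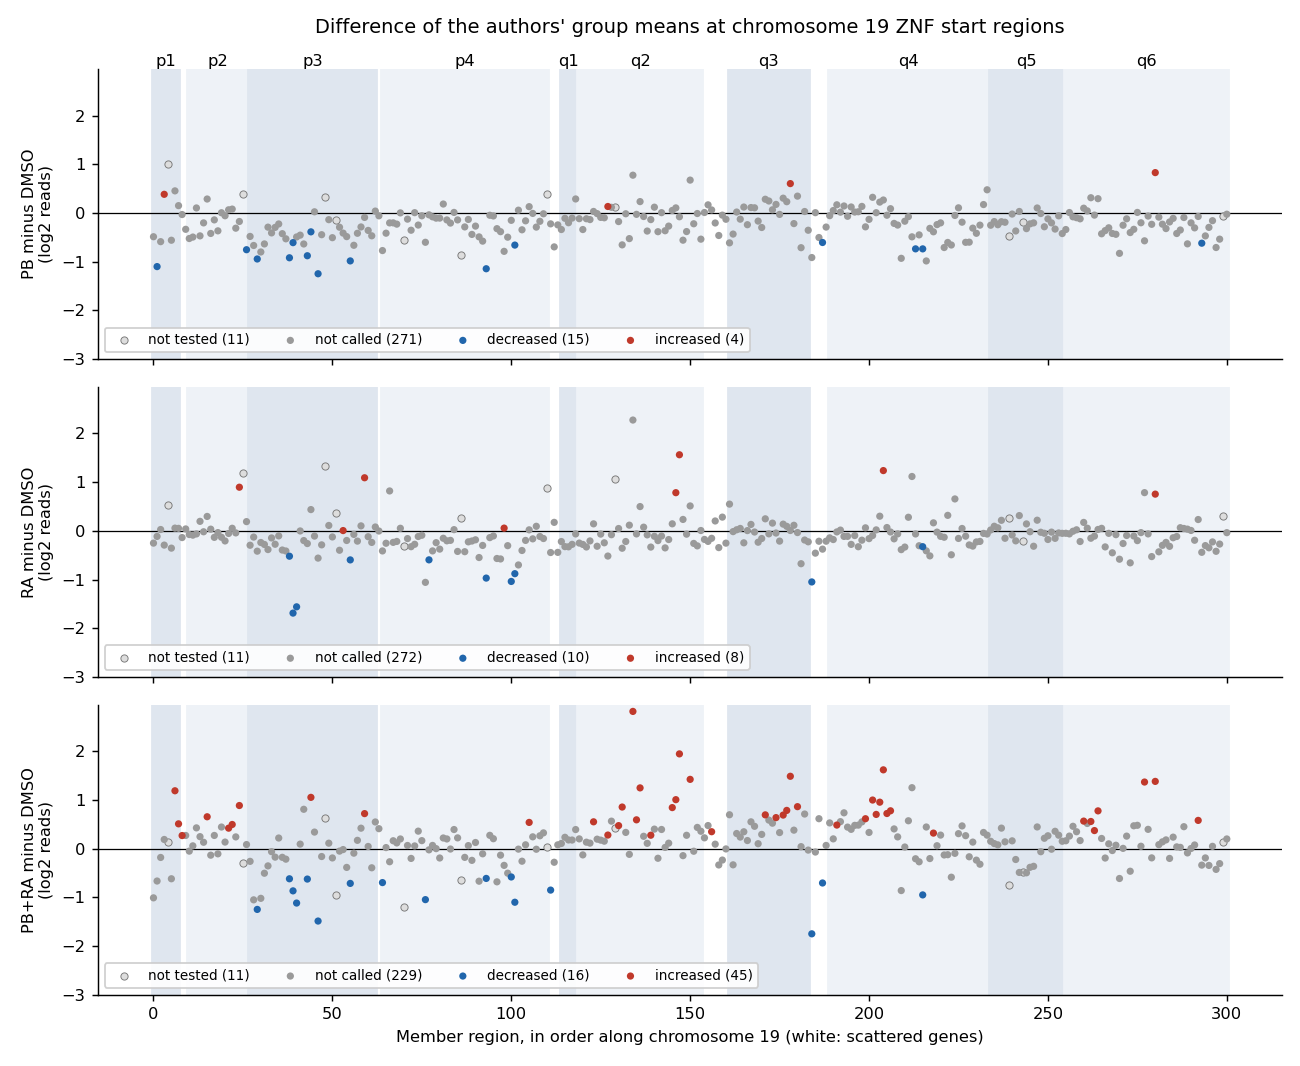
Each point is 1 of the 301 member regions, in order along chromosome 19, with the difference of the authors' group means from DMSO (log2 of normalised reads) for PB, RA and PB+RA. Shaded bands are the clusters p1 to q6, red and blue points were called increased or decreased from the per-library values, and open points were not tested. In PB+RA the 45 red points lie mostly on the long arm and the 16 blue points mostly in p3, p4 and between clusters.

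**Figure D3:**
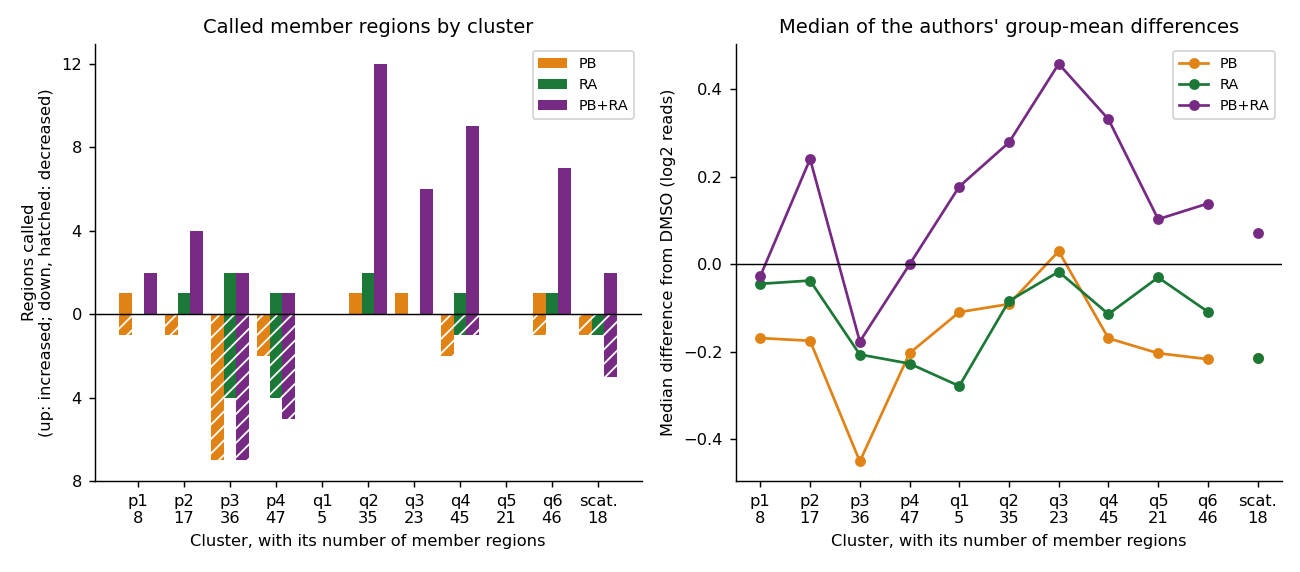
Left, number of members called increased (bars upward) and decreased (hatched bars downward) by cluster for PB, RA and PB+RA. Right, median over the members of each cluster of the difference of the authors' group means from DMSO (log2 of normalised reads), with no error because group means have none. Cluster q2 has 12 PB+RA increases, and p3 has 7 PB and 7 PB+RA decreases.

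Neighbouring genes were somewhat alike. Over 209 pairs of adjacent genes of the same cluster with different regions, the correlation of the group-mean differences was 0.28 for PB+RA, 0.30 for PB and 0.10 for RA. Pairs share genes and libraries, and these values are a description.

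Among the members that increased, 2 regions of ZNF793, a KRAB zinc finger gene of q2, were called increased in RA cells with and without PB. The widest (chr19:38014013-38026255, 12243 bases, with a start site inside) had a peak enrichment of 1.12, 1.12, 0.383 and 0.71 in PB libraries, 5.40, 5.27, 4.19 and 5.46 in RA libraries and 8.78, 3.99, 5.39 and 3.54 in PB+RA libraries, against 0.457, 1.37, 1.33 and 1.44 in DMSO libraries. All RA and PB+RA libraries lay above all DMSO libraries, and the PB libraries overlapped them. The fitted difference was 1.58 (SE 0.20, limma adjusted p = 8.2e-06) for RA and 1.59 (SE 0.20, adjusted p = 4.5e-06) for PB+RA. The authors' means were 7.85 in PB cells, 9.49 in RA cells and 9.87 in PB+RA cells, against 7.93 in DMSO cells. A further region of 5354 bases, 1837 bases from a start of the gene, was increased in RA cells by 1.04 and in PB+RA cells by 1.25. At the region of the promoter printed here, the PB+RA difference was 0.73 (SE 0.23, adjusted p = 0.017), and PB+RA libraries ran from 13.4 to 27, against 7.04 to 20.4 in DMSO libraries, so the groups overlapped there. No RA increase was called at this promoter region.

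ZNF587, a KRAB gene of q6 whose promoter is printed here, was the only member increased in all 3 treatments. Its region (chr19:58361006-58363143) had an enrichment of 4.50, 4.14, 1.65 and 1.70 in PB libraries, 4.01, 3.38, 3.83 and 3.16 in RA libraries and 6.41, 4.33, 7.05 and 7.28 in PB+RA libraries, against 1.07, 2.06, 2.28 and 1.49 in DMSO libraries. RA and PB+RA libraries all lay above the DMSO libraries, and 2 of the 4 PB libraries lay within the DMSO range. The differences were 0.62 for PB (SE 0.20, limma adjusted p = 0.042), 0.82 for RA (SE 0.20, adjusted p = 0.0038) and 1.46 for PB+RA (SE 0.20, adjusted p = 9.2e-06). The PB call was lost without any 1 of PB replicates 1 and 2 and DMSO replicates 1, 2 and 4.

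ZNF233, of q3, was highest with both drugs. Its region (chr19:44763478-44765507) had an enrichment of 3.36, 3.66, 3.95 and 3.65 in PB libraries, 2.85, 2.33, 2.21 and 2.32 in RA libraries and 9.66, 6.60, 7.07 and 7.80 in PB+RA libraries, against 2.15, 2.04, 3.42 and 2.26 in DMSO libraries. Every PB+RA library lay above every library of the other groups. The PB+RA difference was 1.39 (SE 0.18, limma adjusted p = 8.5e-06), and the RA difference was 0.05 (SE 0.18, adjusted p = 0.90). The interaction, the part of the PB+RA difference beyond the sum of both single ones, was 0.77 (SE 0.26, adjusted p = 0.18) and was not called. The PB difference of 0.57 (adjusted p = 0.046) lost its call without 12 of the 16 libraries, each left out alone.

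In q2, ZNF420, which encodes the KRAB protein APAK, a regulator of p53, had 3 members and all were called increased in PB+RA cells. The member 1621 bases from a start had sorted DMSO enrichments of 0, 0, 0 and 1.15, and lost its call with G and C classes centred. At the promoter region (chr19:37567923-37570695) the enrichment was 14.3, 10.6, 10.2 and 15.5 in PB+RA libraries, against 5.04, 7.30, 9.68 and 8.44 in DMSO libraries, with no overlap and a difference of 0.72 (SE 0.16, limma adjusted p = 0.0016). At its region 2984 bases from the start, the member nearest the 3 kb limit, no DMSO or PB library had a peak, 2 RA libraries had one and all 4 PB+RA libraries did. This region met the filter only through RA and PB+RA peaks, so its call is no separate support for an increase. The authors' means there were 4.22 in PB cells, 5.72 in RA cells and 6.26 in PB+RA cells, against 3.44 in DMSO cells, the largest differences of any member in RA and in PB+RA cells. The first region of the chromosome outside the limit, at 3043 bases, lay in p3 between the regions of ZNF878 and ZNF844, not at ZNF420. That p3 region had means of 5.58 in PB cells, 5.80 in RA cells and 5.41 in PB+RA cells, against 6.29 in DMSO cells. ZNF850, also of q2, was increased in PB cells by 0.66 and in PB+RA cells by 0.67 (SE 0.16 each). Its enrichment in RA libraries was 4.69 to 6.71, against 6.20 to 10.3 in DMSO libraries, a difference of -0.33 that was not called. ZNF556, of p1, had the largest of the 4 PB increases, 0.70 (SE 0.14, limma adjusted p = 0.0035), with an enrichment of 4.93 to 8.40 in PB libraries, against 3.01 to 5.69 in DMSO libraries.

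Some increases lay at regions with few or no peaks in DMSO cells. The treated libraries alone could bring such a region past the filter of a peak in at least 4 libraries. Its call is therefore no separate support for an increase. At a region of ZNF610 in q4 (chr19:52854552-52856599) no PB and no DMSO library had a peak, while all 4 RA libraries (0.96 to 1.87) and all 4 PB+RA libraries (0.856 to 3.05) did. Both were called increased (limma adjusted p = 0.004 for RA and 0.00037 for PB+RA). The region met the filter only through these RA and PB+RA peaks. The authors' read-based means were 4.16 in PB cells, 5.13 in RA cells and 5.52 in PB+RA cells, against 3.90 in DMSO cells. At ZNF345 in q2 (chr19:37365368-37366573) the 4 PB+RA libraries had 3.22, 2.22, 1.57 and 2.02, against 0.581 in DMSO replicate 3 and no peak in the other DMSO libraries. The short ZNF112 region of 235 bases, the largest fitted PB+RA difference at 1.97 (SE 0.61, adjusted p = 0.014), had 4.49 to 5.86 in the PB+RA libraries, against 5.73 in DMSO replicate 3 and no peak in the other DMSO libraries. It lost its call without DMSO replicate 2 or DMSO replicate 4.

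Among the members that decreased, ZNF439, a KRAB gene of p3, had 3 regions, all called decreased in RA and in PB+RA cells. The PB decrease was called at 2 of them. At the widest (chr19:11966779-11974406), 2366 bases from the nearest start, the enrichment was 3.93, 3.01, 2.01 and 1.18 in PB libraries, 0.966, 1.15, 1.13 and 1.42 in RA libraries and 2.87, 1.64, 1.82 and 1.88 in PB+RA libraries, against 4.65, 5.07, 4.16 and 4.29 in DMSO libraries. The DMSO libraries lay above all others. The differences were -0.58 for PB (SE 0.18, limma adjusted p = 0.036), -1.30 for RA (SE 0.18, adjusted p = 1.9e-05) and -0.83 for PB+RA (SE 0.18, adjusted p = 0.001). The interaction of 1.06 (SE 0.25, adjusted p = 0.062) was not called. The PB call was lost without PB replicate 2, 3 or 4 or DMSO replicate 1 or 2, each left out alone. At the promoter region, printed here, the differences were -1.10 in PB cells, -0.75 in RA cells and -0.95 in PB+RA cells, and the DMSO libraries themselves ran from 3.69 to 10.6. The RA call there held in 14 of 26 alternatives and was lost without any 1 of the 4 RA libraries or DMSO replicate 2 or 3, without scaling, with quantile scaling and with the stricter peak threshold. None of these 3 calls held with G and C classes centred.

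ZNF878, a neighbour in p3 whose promoter is printed here, had an enrichment of 6.53, 5.93, 6.83 and 4.25 in PB libraries, 10.8, 8.55, 8.65 and 9.0 in RA libraries and 2.76, 4.73, 4.45 and 6.51 in PB+RA libraries, against 11.1, 13.1, 18 and 12.3 in DMSO libraries. Every treated library lay below every DMSO library. The differences were -0.95 for PB (SE 0.22, limma adjusted p = 0.0075), -0.44 for RA (SE 0.22, adjusted p = 0.17, not called) and -1.36 for PB+RA (SE 0.22, adjusted p = 7e-05). The region is chr19:12162613-12164497. The PB call was lost with G and C classes centred.

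ZNF296, a scattered gene known in mouse as a factor of pluripotent cells, had the deepest PB+RA loss of the authors' means among the members. These were 7.43 in PB cells, 7.30 in RA cells and 6.60 in PB+RA cells, against 8.35 in DMSO cells. The enrichment of its promoter region (chr19:45576939-45581151) was 3.88, 4.12, 2.97 and 3.18 in PB libraries, 1.97, 2.60, 3.32 and 3.08 in RA libraries and 1.58, 0.693, 1.55 and 2.89 in PB+RA libraries, against 7.31, 5.78, 7.1 and 6.48 in DMSO libraries. No treated library reached a DMSO library. The differences were -0.63 for PB (SE 0.21, limma adjusted p = 0.054, not called), -0.99 for RA (SE 0.21, adjusted p = 0.0016) and -1.53 for PB+RA (SE 0.21, adjusted p = 1.3e-05). Starts of GEMIN7 and MARK4 also lie within 3 kb of this region.

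ZNF536, which in mouse P19 cells holds back the neuronal differentiation induced by RA, had the highest baseline of all members. Its region of 11249 bases (chr19:30712816-30724064) had an enrichment of 14.5, 14.5, 9.58 and 7.90 in PB libraries, 8.72, 9.58, 7.96 and 10.1 in RA libraries and 8.17, 6.22, 6.04 and 6.90 in PB+RA libraries, against 9.39, 17.7, 11.2 and 16.1 in DMSO libraries. Only the PB+RA libraries all lay below the DMSO libraries. The differences were -0.08 for PB (SE 0.15, limma adjusted p = 0.79), -0.45 for RA (SE 0.15, adjusted p = 0.034, under the 0.5 required) and -0.82 for PB+RA (SE 0.15, adjusted p = 0.0002). The PB+RA call was lost with classes of G and C content centred.

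In p4, ZNF730 and ZNF729 lost weak peaks. Peaks in the DMSO libraries alone were enough to meet the filter there, so the calls are no separate support for a decrease. A region of ZNF730 (chr19:23315755-23317284) had no peak in any PB+RA library and a peak in 1 PB library (1.00) and 1 RA library (0.419), against 1.54, 2.12, 1.89 and 2.86 in the DMSO libraries, and was called decreased in all 3 treatments. That of ZNF729 (chr19:22468782-22469564) had no peak in any PB library, against 3.71, 3.0, 5.38 and 3.47 in the DMSO libraries (limma adjusted p = 0.0028). Its authors' means were 3.70 in PB cells, 3.87 in RA cells and 4.23 in PB+RA cells, against 4.84 in DMSO cells.

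**Figure D4:**
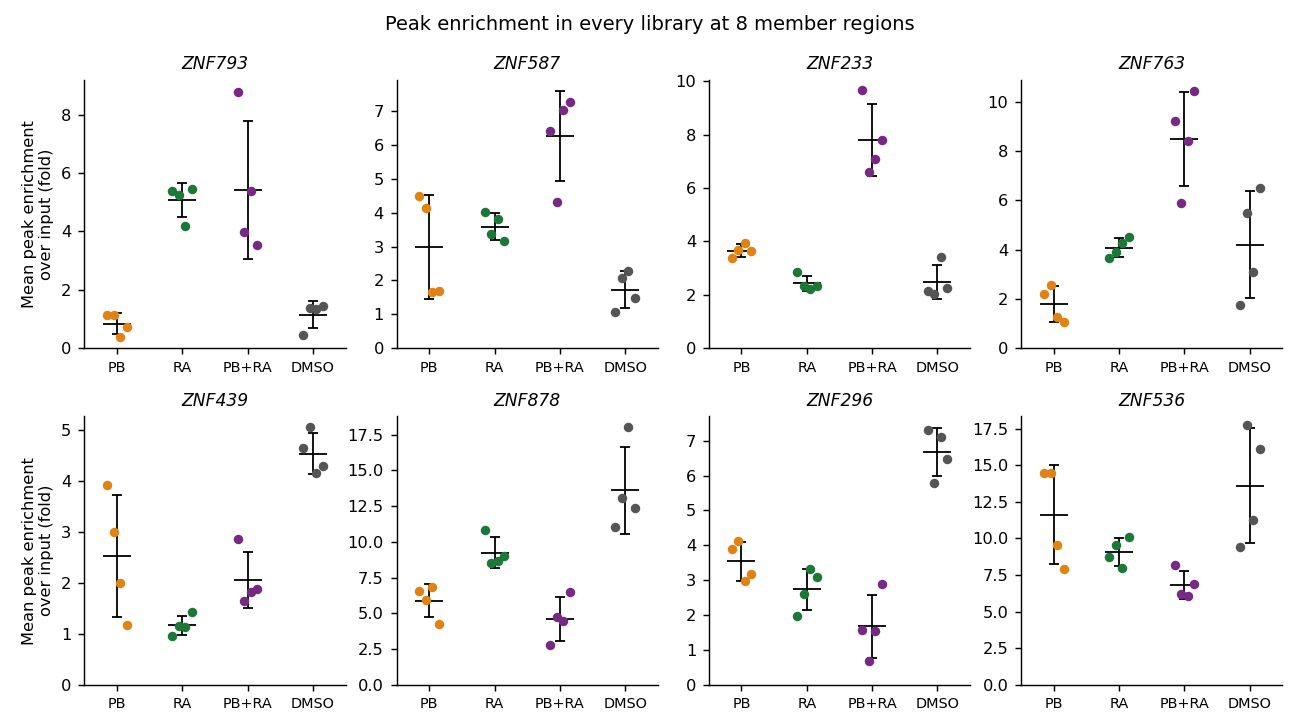
Mean peak enrichment over input (fold, unscaled) of each library at 8 member regions, with a point per library and the mean ± SD of the 4 libraries of PB, RA, PB+RA and DMSO. ZNF793 stands high in RA and PB+RA, ZNF587, ZNF233 and ZNF763 are highest in PB+RA, and the DMSO libraries are highest at ZNF439, ZNF878 and ZNF296. At ZNF536 the DMSO libraries spread from 9.39 to 17.7 and the PB+RA libraries lie between 6.04 and 8.17.

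The interaction was called at 3 of the 290 members tested, against 286 of 76727 regions, 0.373%, over all. It was called at 0 of 1213 other starts of the chromosome and 20 of 16700 other starts elsewhere. A member without a call may still depart from the sum of the single drugs. At ZNF763 in p3 (chr19:12074641-12076599) the enrichment was 2.21, 2.57, 1.25 and 1.08 in PB libraries, 3.67, 3.89, 4.27 and 4.51 in RA libraries and 9.22, 5.90, 8.41 and 10.4 in PB+RA libraries, against 1.76, 5.48, 3.07 and 6.52 in DMSO libraries. The PB+RA libraries stood above those of PB and RA, and above all DMSO libraries except that the lowest of them, 5.90, lay under the highest DMSO library. The region was decreased in PB cells by 0.71 on the log2 scale (SE 0.20, limma adjusted p = 0.024) and increased in PB+RA cells by 0.99 (SE 0.20, adjusted p = 0.00057), with an interaction of 1.58 (SE 0.28, adjusted p = 0.023). The PB decrease lost its call without PB replicate 3, DMSO replicate 2 or DMSO replicate 4. The other 2 regions with an interaction lay at ZNF700, 2162 bases from a start, and at ZNF468 and ZNF28, where a stretch of 268 bases had a peak in 4 PB+RA libraries and 2 DMSO libraries and in no PB or RA library. The count of 3 was 0 without PB replicate 3, RA replicate 1 or RA replicate 2, and 1 without PB replicate 1, PB+RA replicate 1, 2 or 4, or DMSO replicate 2, each left out alone.

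Most zinc finger genes with a described role were not called. ZNF91 and ZNF93, which in human cells repress SVA and LINE-1 elements, had authors' means of 8.40 and 8.92 in PB cells, 8.37 and 8.97 in RA cells and 8.64 and 9.12 in PB+RA cells, against 8.56 and 8.92 in DMSO cells, and fitted PB+RA differences of 0.01 (SE 0.18) and 0.27 (SE 0.16). ZNF274, which brings SETDB1 to the 3′ ends of other zinc finger genes, had a fitted PB+RA difference of 0.00 (SE 0.18) from means of 8.92 in both PB+RA and DMSO cells. ZNF675, an inhibitor of TRAF6 signalling, was increased in PB+RA cells by 0.68 (SE 0.14, limma adjusted p = 0.00068), with 14.7, 8.07, 11.3 and 9.96 in PB+RA libraries, against 6.46, 6.63, 6.27 and 6.91 in DMSO libraries. That call was lost with G and C classes centred. ZNF350, known as ZBRK1 and a partner of BRCA1, had a PB+RA difference of 0.57 (SE 0.29, adjusted p = 0.12), and ZNF331 one of -0.33 (SE 0.19, adjusted p = 0.18). Of the genes of this list 13 of 14 had a region, 2 were increased and 1 decreased in PB+RA cells, and none was called in PB or RA cells. Of all members tested 15.5% were increased and 5.52% decreased in PB+RA cells, and of all regions tested 22.2% and 14.5%. In PB cells 1.38% and 5.17% of the members were called, and in RA cells 2.76% and 3.45%.

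Over the regions nearest the start, the median PB+RA difference of the authors' means was 0.18 for 178 genes with a KRAB pattern and 0.16 for 63 with neither pattern. Of the KRAB genes 23 were increased and 8 decreased, and of those with neither pattern 10 and 2. Of all member regions tested 15.5% were increased and 5.52% decreased. The difference between the kinds was not tested. The 20 genes of the co-repressor machinery on which KRAB proteins act all had regions, 40 in number with a median PB+RA difference of 0.05. In PB+RA cells 2 of these genes were increased and 4 decreased, one of them, DNMT1, in both directions at different regions. Of all regions tested 22.2% were increased and 14.5% decreased. HDAC1, a histone deacetylase, was decreased in PB cells by 0.74 on the log2 scale and in PB+RA cells by 0.87 (SE 0.16 each, limma adjusted p = 0.0053 and 0.00028). TRIM28 itself had means of 6.48 in PB cells, 6.83 in RA cells and 6.45 in PB+RA cells, against 6.85 in DMSO cells, and was not called.

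Of 21 zinc finger genes of chromosome 19 with names of other kinds, 15 had a region. In PB+RA cells 4 were increased and 1 decreased, in PB cells 4 were increased, and in RA cells 2. Of all regions tested PB+RA increased 22.2% and decreased 14.5%, PB increased 7.26% and RA 13.0%. The increased genes included PEG3 and ZIM2, imprinted neighbours that share a start region. At that region the difference was 1.13 in PB cells, 0.99 in RA cells and 1.64 in PB+RA cells (SE 0.27 each), with authors' means of 4.59 in PB cells, 4.48 in RA cells and 5.18 in PB+RA cells, against 4.0 in DMSO cells. ZFP14, which lies within the span of q2, was increased in PB+RA cells by 0.85 (SE 0.16), and ZSCAN5A by 0.64 (SE 0.17).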

How the data were processed

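H3K27ac ChIP-seq was analysed in 16 ChIP libraries of SK-N-BE(2)C cells, 4 per group, each a separate passage per the study's methods. The authors trimmed reads, with fastp 0.12.4 per the submitters' processing notes, used Bowtie2 for alignment to hg19 (2.4.4 in those notes, an earlier release in the study's list of resources), and called broad peaks in each library against its input with MACS2 2.2.7.1. The treatment of duplicate and multiply mapping reads, and the read depth per library, are not given in the sources used here, so the depth behind each value is unknown. The deposited peak files hold the fold enrichment over input, a ratio, and the -log10 of the q-value of each peak. The deposited DiffBind table holds the region coordinates and the authors' group means as log2 of normalised reads. It also holds their fold changes and p-values, which were not used.

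The enrichment of the peaks was averaged over each region, with 0 where no peak was called, and log2(value + 1) was scaled to a common median over regions with a peak in every library and fitted with limma 3.58.1 in R 4.3.3 over all 4 groups, without a replicate term. Regions with a peak in at least 4 libraries were tested. The fit was tested on simulated data. A call needed a Benjamini-Hochberg adjusted p under 0.05 over all regions tested and a difference over 0.5, and an interaction the adjusted p alone. Start sites and proteins came from GENCODE 44 mapped to hg19, and KRAB, SCAN and finger patterns from translated coding sequence can miss domains. The regions named were the 5 largest called differences in each direction and treatment, genes of known role, the highest and lowest region of each cluster, the 3 leading interactions and called genes of 2 lists. ZNF20, ZNF700 at its promoter and the ZNF420 region nearest the 3 kb limit were named besides. Members, lists and tests were chosen with earlier results of these data known. Alternatives were other scalings, pseudocounts, filters, peak thresholds and measures, centring by G and C content, a replicate block, other distances and gaps, and each library left out.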

Additional observations from a re-analysis of the deposited data

Results flagged for a closer look

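Of 92 groups of 4 libraries at the named regions, 14 held a library far from the other 3 by Dixon's test. In normally distributed values this test flags about 1 in 20 groups by chance. In 9 of the 14 flagged groups the other 3 libraries had no peak: enrichments of 0.338 in PB+RA at ZNF653, 1.00 in PB and 0.419 in RA at ZNF730, 0.31 in RA and 0.581 in DMSO at ZNF345, 1.15 in DMSO at ZNF420, 2.44 in RA and 5.73 in DMSO at ZNF112, and 0.674 in PB+RA at ZNF600. Where 3 of 4 libraries have no peak, the test flags any peak in the other library. The 14 groups can therefore not be set against the rate of 1 in 20. Low libraries were seen in PB+RA at the ZNF439 promoter region (1.65) and at ZNF709 (1.39), and at the wide ZNF793 region in RA (4.19) and in DMSO (0.457). One library was high, DMSO replicate 3 at ZNF233 (3.42).

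The interaction term of the limma fit was called at ZNF763 (1.58, adjusted p = 0.023), at the ZNF700 region 2162 bases from a start (2.16, adjusted p = 0.03) and at the short region of ZNF468 and ZNF28 (3.25, adjusted p = 0.033). The last of these had no peak in any PB or RA library. The count of interaction calls fell to 0 without PB replicate 3, RA replicate 1 or RA replicate 2, each left out alone. At ZNF700 the enrichment was 0.754, 2.22, 0 and 0 in PB libraries, 1.30, 1.16, 0 and 1.46 in RA libraries and 5.07, 4.43, 2.63 and 3.38 in PB+RA libraries, against 1.74, 2.10, 1.71 and 2.34 in DMSO libraries.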

How the results depend on the processing

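Of 48 called differences at the named regions, 15 kept their call under every alternative run, among them ZNF793, ZNF233, ZNF763, ZNF878, ZNF345, ZNF610 and ZNF296 for PB+RA. Some regions did not enter the fit of every alternative. With a peak required in all 16 libraries 28 of the 48 were tested, and with peaks of -log10 q of at least 5, 29. Of those named, ZNF345 and ZNF610 were tested in 24 alternatives and the others in 26. Counts moved more. Without scaling no member was increased in PB cells, and with quantile scaling 14 were, with 6 interactions. With the highest peak in place of the mean, 0 members were increased and 4 decreased in PB, 4 and 4 in RA, and 11 and 8 in PB+RA, and the sign turned for RA at the ZNF439 promoter region (0.032) and for PB at ZNF763 (0.041). With peaks of -log10 q of at least 5, PB gave 11 increased and 5 decreased, RA 3 increased and PB+RA 8 decreased. With G and C classes centred, PB gave 4 decreased, PB+RA 68 increased and 9 decreased, and 6 interactions were called. With a peak required in all 16 libraries RA gave 6 decreased, and with starts within 1 kb 5 increased. The cause of these shifts was not tested.

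Leaving out each library gave 2 to 14 increased and 10 to 17 decreased members in PB, 6 to 14 and 6 to 18 in RA, 31 to 76 and 12 to 22 in PB+RA, and 0 to 3 interactions. Counts moved by over 1.5 times without DMSO replicates 2 (2) or 4 (2) for PB increases, without DMSO replicate 3 for PB (14), RA (14) and PB+RA (76) increases, and without RA replicate 1 (6), DMSO replicate 1 (18) or DMSO replicate 3 (6) for RA decreases.

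The labels do not say that a replicate number marks a shared experiment. Of 24 same-numbered pairs, 23 had a correlation above 0 and 13 one over 0.1, with a range of -0.08 to 0.24, and 17 of 48 comparisons were highest for the own number, so a pairing was neither established nor excluded. With a replicate block PB gave 6 increased and 22 decreased members, RA 12 and 10, PB+RA 54 and 19, and 5 interactions were called. With the replicate block and G and C classes centred, PB gave 12 and 6, PB+RA 86 and 9, and 5 interactions were called.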
